A study of Mus musculus with 2 samples.

Results

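The 41 genes described here build, move and take apart the actin cytoskeleton of migrating cells, and were examined in mouse blood neutrophils by where chromatin was open around them. They were chosen by function, but with earlier results of these data known. All 41 matched a symbol among the 21911 protein-coding genes of GENCODE M21. Of the 41, 9 are the haematopoietic or leukocyte-enriched form of their family (Arpc1b, Coro1a, Was, Wipf1, Hcls1, Nckap1l, Fmnl1, Lcp1 and Dock2), and the other 32 are treated as ubiquitous. A neutrophil crawls by pushing out a flat, branched actin network at its front and contracting at its rear, and actin genes are among the most highly expressed of many cell types. Branching is made by the Arp2/3 complex, which is switched on by WASP and by the WAVE complex under the GTPases Cdc42 and Rac. Formins and Ena/VASP proteins lengthen filaments, capping proteins stop them, and cofilin and its partners return monomers to the pool.

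The data were ATAC-seq peak lists, which mark where a transposase could reach the DNA. The 2 libraries were biological replicates 1 and 2 of 1 group: neutrophils of the C57BL/6J strain, taken from peripheral blood at an adult age of 5 to 6 weeks, with 50000 cells in each library. Labelled size ranges, without a unit, ran from 151 to 347 in replicate 1 and from 151 to 379 in replicate 2. Sex was not collected, no sorting step is named, and both libraries carry 1 donor record, so the spread between them may be technical. No treatment, genotype or second cell type was present, and no comparison between groups of samples could be made. In a mixed blood preparation, fewer cells of a type with an open site and less opening per cell cannot be told apart.

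The stringent list of replicate 1 held 27709 regions and that of replicate 2 held 14548. Read depth is unknown, so a region missing from replicate 2 may lie under its detection limit. Of 12 neutrophil marker genes, 11 had a promoter region in replicate 1 and 6 in both replicates. Lcn2 was the neutrophil marker without one. Of 6 B cell markers, 6 had a promoter region in replicate 1 and 4 in both (Cd79a, Ms4a1, Pax5 and Cr2). The count in both replicates was 1 of 6 for T cells, 0 of 6 for monocytes, 0 of 6 for erythroid cells and 1 of 6 for platelets. Of all protein-coding genes 39.8% had a promoter region in both replicates, and of those not CpG-rich (defined below) 18.2%. None of the neutrophil, B cell or erythroid markers was CpG-rich. With 6 markers each, a low count does not show that a cell type was absent. The part that B cell chromatin has in the values below was not tested.

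A gene is called open here when a region comes within 1 kb of an annotated start site, upstream or downstream, counting all of its start sites. By that rule 35 of the 41 genes were open in both replicates (85.4%), against 39.8% of all protein-coding genes. In replicate 1 alone 37 were open (90.2%, against 47.1% of all genes), and in replicate 2 alone 36 (87.8%, against 40.3%). The shared list, the authors' conservative list made from both replicates by the irreproducible discovery rate (IDR), had a promoter region for 39 (95.1%, against 46.7%). The 6 genes that were not open in both replicates were Arpc1b, Fmnl1 and Evl, which had no region in either, Wipf1 and Ezr, open in replicate 1 only, and Pfn1, open in replicate 2 only. These genes had a median of 6 annotated start sites, against 3 for all genes, which gives a region more places to overlap. With the 5'-most start site alone, 32 of 41 were open in both replicates, against 36.5% of all genes.

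Each promoter is described by the signal value, a score that the authors' processing assigned to each peak and that is not defined in the sources used here. Words such as strong and weak refer to this score alone, not to a measured degree of opening. Genes are ranked by it within a list. Where values of the replicates are set side by side or averaged, that describes 2 lists whose scales may differ. Among the 35 genes open in both replicates the median of the highest promoter value was 11.09 in replicate 1 and 11.99 in replicate 2. The medians over all open protein-coding genes were 13.3 and 13.9. The set was thus open more often than most genes, while its median value lay below the general median in both replicates. Of the 35, 24 had the higher value in replicate 2, and 64.3% of all open genes did so. For Arpc1a, Arpc4, Arpc5, Capza1, Cfl1, Lcp1, Rhoa and Tln1 the strongest region also had another protein-coding gene's start within 1 kb of its summit. Position alone does not say which gene such a value belongs to.

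**Figure D1:**
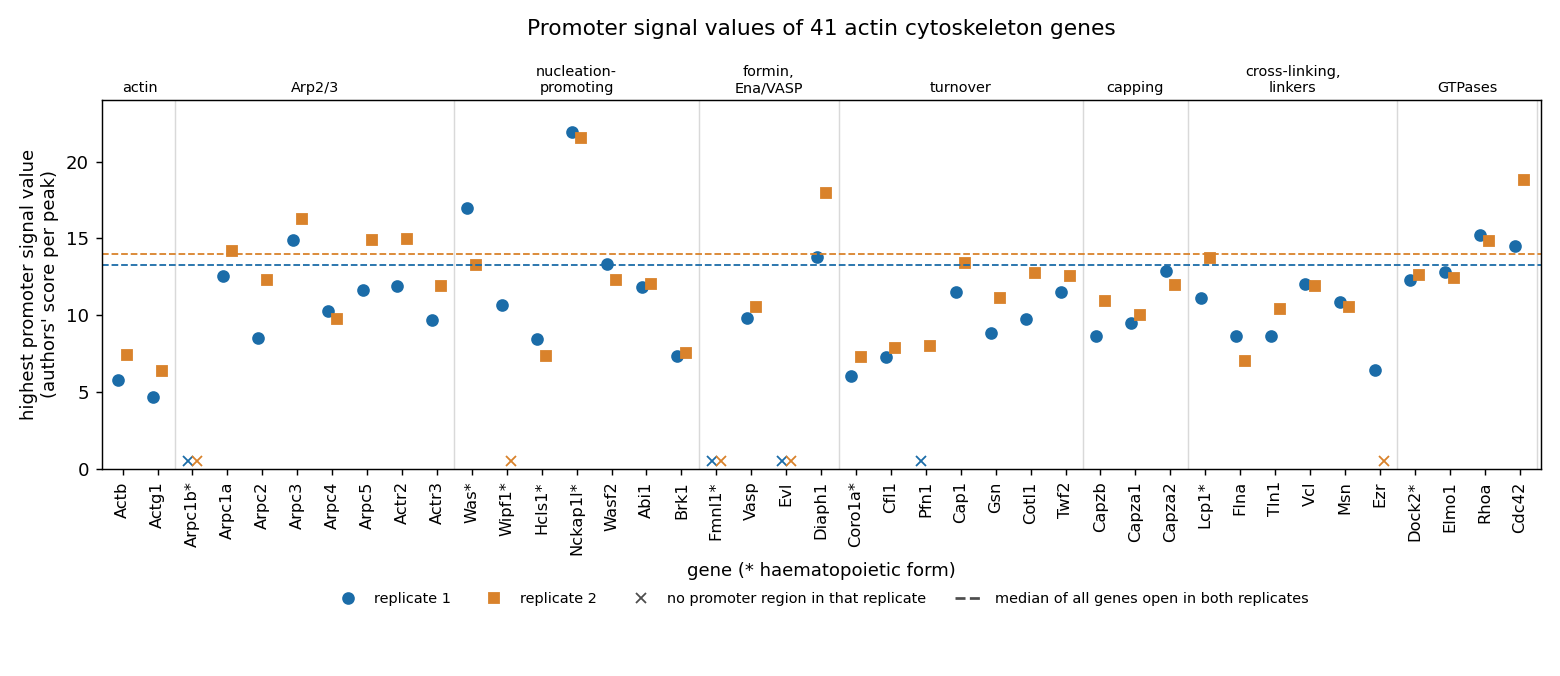
Highest promoter signal value (vertical axis, the authors' score) of each of the 41 genes, grouped by role; circles are replicate 1, squares replicate 2, crosses mark a replicate without a promoter region, and dashed lines are the medians of all open genes, 13.3 and 13.9. Nckap1l stands highest at 21.9 and 21.5, and Actg1 lowest at 4.69 and 6.34.

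The actins themselves had the lowest promoter values among members open in both replicates, by the mean of the replicates. Actb (chr5:142903115-142906754, minus strand), which encodes beta-actin, had highest promoter values of 5.76 in replicate 1 and 7.37 in replicate 2. Actg1 (chr11:120345690-120348542, minus strand), which encodes gamma-actin of non-muscle cells, had 4.69 and 6.34. Among all genes open in the same list, 1.63% had a lower value than Actb in replicate 1 and 2.27% in replicate 2. For Actg1 the shares were 0.281% and 0.612%. Both genes were therefore among the weakest called promoters of either library. They held the 2 lowest values of the set in replicate 1, while in replicate 2 those of Flna, Coro1a and Hcls1 lay between them. Actb had regions at its first start sites and near 1 further downstream, with values of 5.38 and 6.89 at the former and 5.76 and 7.37 at the latter.

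Actg1 has a CArG box next to its start site. This box (CC, then 6 bases that are A or T, then GG, the same on both strands) is the sequence bound by serum response factor, a regulator known for driving actin genes. Sequences upstream of the start sites of Actg1 and Vcl are shown because each holds such a box, in mm10 and on the strand of the gene, with annotated exons left out. Capitals mark the CArG box.
Actg1, chr11:120348543-120348631, minus strand: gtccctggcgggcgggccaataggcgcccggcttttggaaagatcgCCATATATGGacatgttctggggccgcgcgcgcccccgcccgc
Vcl, chr14:20929126-20929226, plus strand: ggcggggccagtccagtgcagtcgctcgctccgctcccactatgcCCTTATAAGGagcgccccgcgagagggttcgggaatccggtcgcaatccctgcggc

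The box lay 39 bases before the nearest start site in Actg1 and 222 bases before it in Vcl. The box of Actg1 was 14 bases from the summit of the region. Vcl, the gene of the adhesion protein vinculin, had values of 12.02 and 11.86, above those of the actins. A box thus stood both in promoters with low values and in those with moderate ones.

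CArG boxes were counted in the shared list. Within 50 bases of a promoter summit, 3 of the 39 genes with a region had a box (7.69%: Actg1, Arpc4 and Cfl1), against 0.586% of all open genes. Over whole promoter regions 6 had a box (15.4%, with Actb, Coro1a and Vcl added), against 2.41%. The boxes of Actb lay 29 and 32 bases before annotated start sites. They were 53 and 55 bases from the summits, just outside the summit window. Promoter regions of these 39 genes held a median of 840 bases per gene, against 663 for all genes, so somewhat more sequence was searched. In RefSeq's promoter windows on the same build, from 250 bases before to 50 after a start, 3 of 36 matched members had a box (8.33%: Actg1, Arpc4 and Vcl), against 1.81% of 27025 genes. A match describes letters and does not show that the factor was bound.

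The Arp2/3 complex nucleates branches on existing filaments and has 7 subunits, several of which come in alternative forms. Of its 8 genes here, all of them CpG-rich, 7 were open in both replicates, beside 39.8% of all genes and 66.8% of CpG-rich ones. Arpc3, a small subunit, was highest in both replicates with 14.9 and 16.3. Actr2, an actin-related subunit that helps form the first part of the new filament, had 11.9 and 15.0, and its partner Actr3 had 9.67 and 11.9. Arpc5 had 11.6 and 14.9. Arpc2 and Arpc4, which form the core of the complex, had 8.52 and 12.3, and 10.3 and 9.77. Arpc4 was the only open subunit gene whose value was lower in replicate 2. Its region was centred 282 bases before the start site, in an exon of the neighbouring gene Tada3, and its CArG box lay 247 bases before the start.

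The remaining pair of subunit genes are alternative forms of 1 subunit. Arpc1a, the widely expressed form, had 12.5 and 14.2. Arpc1b, the form that predominates in blood cells, had no promoter region in the stringent list of either replicate. In the shared list its region, centred 512 bases downstream of the 5'-most start site in an intron, had a value of 5.52, and only 0.762% of open genes were lower. In the less strict lists this region had 5.47 in replicate 1 and 4.50 in replicate 2, and the highest promoter value of Arpc1b in the latter, 6.83, came from another region. Arpc1b was thus near the detection limit, and these lists do not show it closed.

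Arpc3 had an ETS string beside its summit. The sequence before its start site is shown with that string, CCGGAAGT, in capitals, 7 bases before the start and 9 bases from the summit.
Arpc3, chr5:122391821-122391877, plus strand: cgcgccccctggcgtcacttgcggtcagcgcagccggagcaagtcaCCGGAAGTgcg

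Activators of Arp2/3 included the strongest promoter of the set. Nckap1l (chr15:103453794-103498810, plus strand) encodes HEM1, the haematopoietic subunit of the WAVE complex. Its promoter value was 21.9 in replicate 1 and 21.5 in replicate 2, and 98.5% and 97.1% of open genes were lower. The summit lay 78 bases before the start site. Was (chrX:8081453-8090498, minus strand), which encodes the Wiskott-Aldrich syndrome protein, had 17.0 and 13.3, with 83.9% and 44.4% of open genes lower. Its standing therefore differed between the libraries, unlike that of Nckap1l. Among the widely expressed WAVE subunits, Wasf2 had 13.3 and 12.3, Abi1 had 11.8 and 11.99, and Brk1, the smallest subunit, had 7.33 and 7.51. Brk1 was among the 5 lowest of the set.

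Hcls1 encodes HS1, the blood-cell relative of cortactin, which stabilises branches. It had 8.41 and 7.31, with 15.6% and 2.15% of open genes lower. Wipf1 encodes WIP, which binds and protects WASP. Its strongest promoter region had 10.6 in replicate 1 and no counterpart in the stringent list of replicate 2, while the less strict list there gave 9.18. That region was centred 43257 bases downstream of the 5'-most start site and 8 bases from another annotated start. The first start site of Wipf1 itself had no region in either stringent list, although its surroundings are CpG-rich.

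Promoter sequences are shown for Nckap1l, Wipf1, Coro1a and Elmo1, which hold the PU.1-type ETS string GAGGAAGT, and for Was, which holds the RUNX string TGTGGTT. PU.1 and RUNX factors are known as regulators of myeloid genes. Capitals mark these strings, and in Coro1a also its CArG box.
Nckap1l, chr15:103453607-103453707, plus strand: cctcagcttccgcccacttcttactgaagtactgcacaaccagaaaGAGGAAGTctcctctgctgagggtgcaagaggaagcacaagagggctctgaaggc
Wipf1, chr2:73486470-73486534, minus strand: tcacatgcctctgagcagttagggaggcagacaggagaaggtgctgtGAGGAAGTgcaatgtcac
Coro1a, chr7:126702539-126702639, minus strand: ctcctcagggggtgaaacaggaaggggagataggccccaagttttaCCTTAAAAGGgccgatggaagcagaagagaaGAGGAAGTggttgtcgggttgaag
Elmo1, chr13:20090499-20090595, plus strand: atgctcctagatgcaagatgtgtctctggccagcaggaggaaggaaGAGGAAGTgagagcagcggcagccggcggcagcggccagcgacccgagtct
Was, chrX:8090499-8090575, minus strand: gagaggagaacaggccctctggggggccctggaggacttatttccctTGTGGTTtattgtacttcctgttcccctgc

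The PU.1-type string lay 137 bases before the start site in Nckap1l, 15 before an internal start in Wipf1, 87 before an internal start in Coro1a and 47 before the first start in Elmo1. It was 7 bases from the summit in Wipf1 and in Elmo1. The Coro1a region that holds both strings was weak, with 5.47 in replicate 1 and no region in the stringent list of replicate 2. The RUNX string of Was lay 27 bases before its start site and 32 from the summit.

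Formins and Ena/VASP proteins elongate filaments. Of 4 such genes, all of them CpG-rich, 2 were open in both replicates, beside 39.8% of all genes and 66.8% of CpG-rich ones. So few genes give no rate for this role. Diaph1, a formin activated by RhoA, had 13.78 and 17.98. Vasp had 9.80 and 10.5. Fmnl1, the leukocyte formin, had no promoter region in either stringent list nor in the shared list. In the less strict lists it had 5.29 and 4.20. Evl, an Ena/VASP protein, had the fewest called regions of all 41 genes. A single promoter region of 4.34 in the less strict list of replicate 1 was all that was called, and no distal region lay within 50 kb in any list.

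Of the 7 genes for monomer supply and filament turnover, 6 were open in both replicates (39.8% of all genes). Cap1, which helps cofilin and recharges monomers, had 11.5 and 13.4. Twf2, a twinfilin, had 11.5 and 12.5, and Cotl1, a coactosin-like actin-binding protein, had 9.77 and 12.8. Gsn encodes gelsolin, which severs and caps filaments, and had 8.84 and 11.1. Each of these 4 was higher in replicate 2 than in replicate 1. Pfn1, the gene of profilin, which delivers monomers to growing ends, had 8.0 in replicate 2 only. In the less strict list of replicate 1 it had 5.54.

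Cfl1 and Coro1a stood at the low end. Cfl1 encodes cofilin, which severs old filaments, and had 7.29 and 7.87. Its strongest region was centred 1279 bases before its start site, near the start of the neighbouring gene Mus81. The region at the start of Cfl1 itself, 63 bases before it, had 5.03 and 4.93. Cfl1's 2 CArG boxes lay in the upstream region, so whether they belong to Cfl1 or to Mus81 cannot be told apart from position. Coro1a encodes coronin 1A, a regulator of Arp2/3 and cofilin in leukocytes, and had 6.06 and 7.29. Its highest value came from different regions in the replicates, at internal start sites 3502 and 6484 bases downstream of the first. At the first start site of Coro1a a value of 5.79 was called in replicate 1 alone.

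Capping protein blocks the growing end of a filament, and all 3 of its genes were open in both replicates (39.8% of all genes). Capza2 had 12.9 and 11.9, Capza1 had 9.50 and 9.99, and Capzb had 8.64 and 10.9. All 6 values lay under the general medians.

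Of the 6 genes for cross-linkers and membrane linkers, 5 were open in both replicates (39.8% of all genes). Lcp1 encodes L-plastin, which bundles filaments in leukocytes, and had 11.1 and 13.7, the highest of these in replicate 2, while Vcl was highest in replicate 1. Msn, the gene of moesin, which ties actin to the membrane, had 10.8 and 10.5. Tln1 encodes talin, which activates integrins, and had 8.67 and 10.4. Flna, a filamin that links filaments into networks, had 8.63 and 7.02 at a start site 3310 bases downstream of its first. Ezr, the gene of ezrin and a relative of moesin, had 6.42 in replicate 1 only, and 7.16 in the less strict list of replicate 2.

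All 4 genes of small GTPases and their activators were open in both replicates (39.8% of all genes). Cdc42, a GTPase that sets cell polarity and activates WASP, had 14.5 and 18.8. Rhoa, a GTPase that drives contraction at the rear, had 15.2 and 14.8. Dock2 and Elmo1, partners that activate Rac in leukocytes, had 12.3 and 12.6, and 12.8 and 12.4. The Dock2 values came from an intronic region centred 696 bases downstream of its first start. The region at that start had 9.77 and 7.34. Cdc42 and Rhoa lay above the general median in both replicates, and Dock2 and Elmo1 below it in both.

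Which form was open more often depended on the promoter width and on the list. Of the 9 haematopoietic genes 6 were open in both replicates (66.7%), and of the 32 ubiquitous genes 29 (90.6%), beside the 39.8% of all genes. With a promoter width of 2.5 kb the counts were 9 of 9 and 29 of 32 (41.5% of all genes), and in the less strict lists 9 of 9 and 31 of 32 (49.8% of all genes). The median promoter values of those open in both were 11.7 and 12.9 for the haematopoietic genes and 10.8 and 11.9 for the ubiquitous ones. The haematopoietic genes held both the strongest promoter of the set, Nckap1l, and 2 of the 3 with no region in either replicate, Arpc1b and Fmnl1. Leukocytes other than neutrophils use the same forms, and the 6 B cell markers had promoter values of up to 23.7 (Cr2) in replicate 1; their part in the haematopoietic counts was not tested.

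Within 1 kb of any start site, the haematopoietic genes divided by the sequence around their first start site. A promoter is called CpG-rich here when the 500 bp before and the 500 bp after that site together have at least 0.6 of the CpG pairs their base content predicts and a GC share of at least 0.5. All 6 haematopoietic genes without a CpG-rich promoter (Coro1a, Was, Hcls1, Nckap1l, Lcp1 and Dock2) were open in both replicates. None of the 3 with one (Arpc1b, Wipf1 and Fmnl1) was. Among all genes the order was the opposite: 66.8% of genes with a CpG-rich promoter and 18.2% of the others were open in both replicates. The ubiquitous members were 29 CpG-rich genes, of which 26 were open, and 3 others (Capza2, Flna and Msn), all open. In the set as a whole, counting any start site, 9 of 9 genes without a CpG-rich promoter and 26 of 32 with one (81.2%) were open. Flna had no region within 1 kb of its first start site in the stringent or shared lists. Its class and its region thus belong to different sites. The division among the haematopoietic genes was not there at a promoter width of 2.5 kb or in the less strict lists, where all 9 were open in both replicates. With the 5'-most start site alone 5 of the 9 were open, since that site of Coro1a had a region in replicate 1 only.

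**Figure D2:**
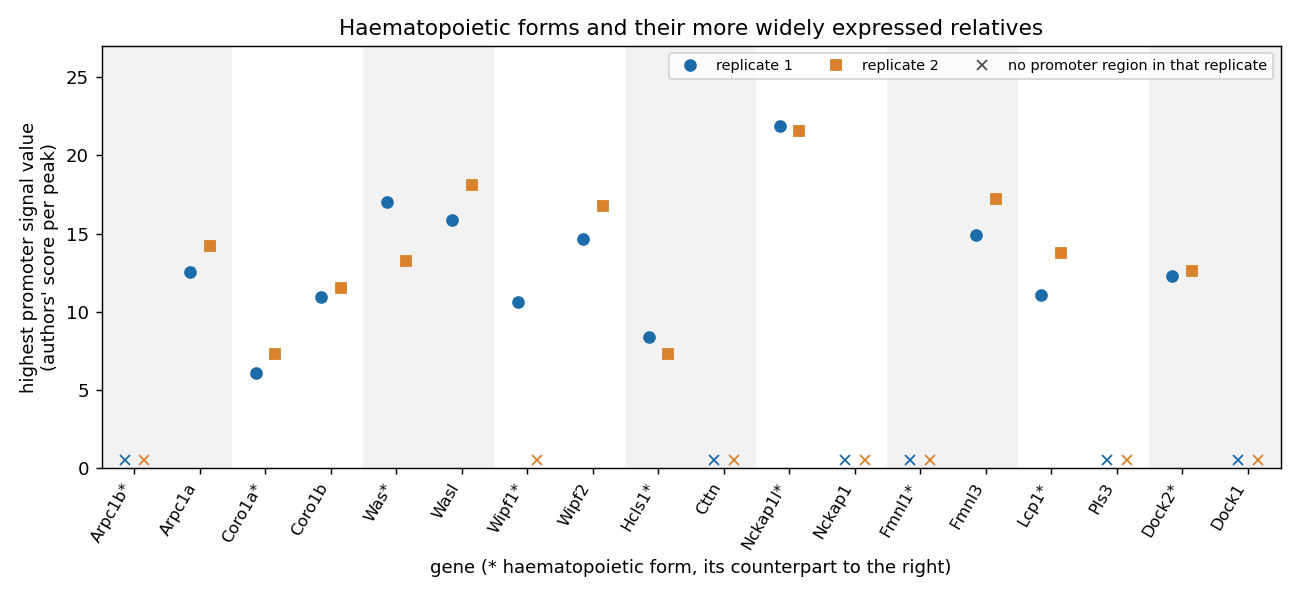
Highest promoter signal value (vertical axis, the authors' score) of each haematopoietic form, starred, with its counterpart to the right; circles are replicate 1, squares replicate 2, and crosses mark a replicate without a promoter region. Hcls1, Nckap1l, Lcp1 and Dock2 were open beside counterparts with no region, and Arpc1b and Fmnl1 showed the reverse.

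Each haematopoietic form was set beside a more widely expressed relative. In 4 of the 9 pairs the haematopoietic form was open in both replicates and the relative had no promoter region in any list. These were Nckap1l beside Nckap1, Hcls1 beside Cttn (cortactin), Lcp1 beside Pls3 (T-plastin) and Dock2 beside Dock1. In 2 pairs the relative was open and the haematopoietic form was not. Arpc1a had 12.5 and 14.2, and Fmnl3, the partner of Fmnl1, had 14.9 and 17.2. In the other 3 pairs the relative had a region in both replicates and the haematopoietic form in at least 1. Coro1b, beside Coro1a, had 11.0 and 11.5, higher than Coro1a in both replicates. Wipf2, beside Wipf1, had 14.7 and 16.8. Wasl, the relative of Was, had 15.9 and 18.1, so that Was was the higher in replicate 1 and Wasl in replicate 2.

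In the shared list the summit of the strongest promoter region was over 1 kb from the 5'-most start in 7 of 39 genes (Coro1a, Wipf1, Cfl1, Vasp, Flna, Twf2 and Elmo1), a share near the 13.6% of all open genes. In Cfl1 it lay upstream of the first start, and in the others near an internal one. The Elmo1 region lay 94685 bases inside the gene, 74 bases from an internal start site, with 12.8 and 12.4, against 8.07 and 8.84 at the first. Twf2 had 11.5 and 12.5 at a start 8997 bases downstream of the first, where replicate 1 alone showed 5.95 near the first. Vasp had 9.80 and 10.5 at 5747 bases downstream, against 6.62 and 6.42 at the first.

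Distal regions have a summit over 1 kb from every annotated start site and lie within 50 kb of the 5'-most start of a gene. The 41 genes had 3.10 per gene in replicate 1 and 1.34 in replicate 2 (mean 2.22 ± 1.24, SD, n = 2), and all protein-coding genes had 1.17 and 0.433 (0.801 ± 0.521). At least 1 distal region in both replicates was found for 29 of 41 members, against 27.7% of all genes. In replicate 1 alone the count was 37 of 41, against 51.3%. Ubiquitous members had 3.28 and 1.47 per gene, and haematopoietic members 2.44 and 0.889. Both forms were counted in the same lists, and ubiquitous members had more per gene in each. The difference between the forms was not tested, and it is smaller than that between the libraries.

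**Figure D3:**
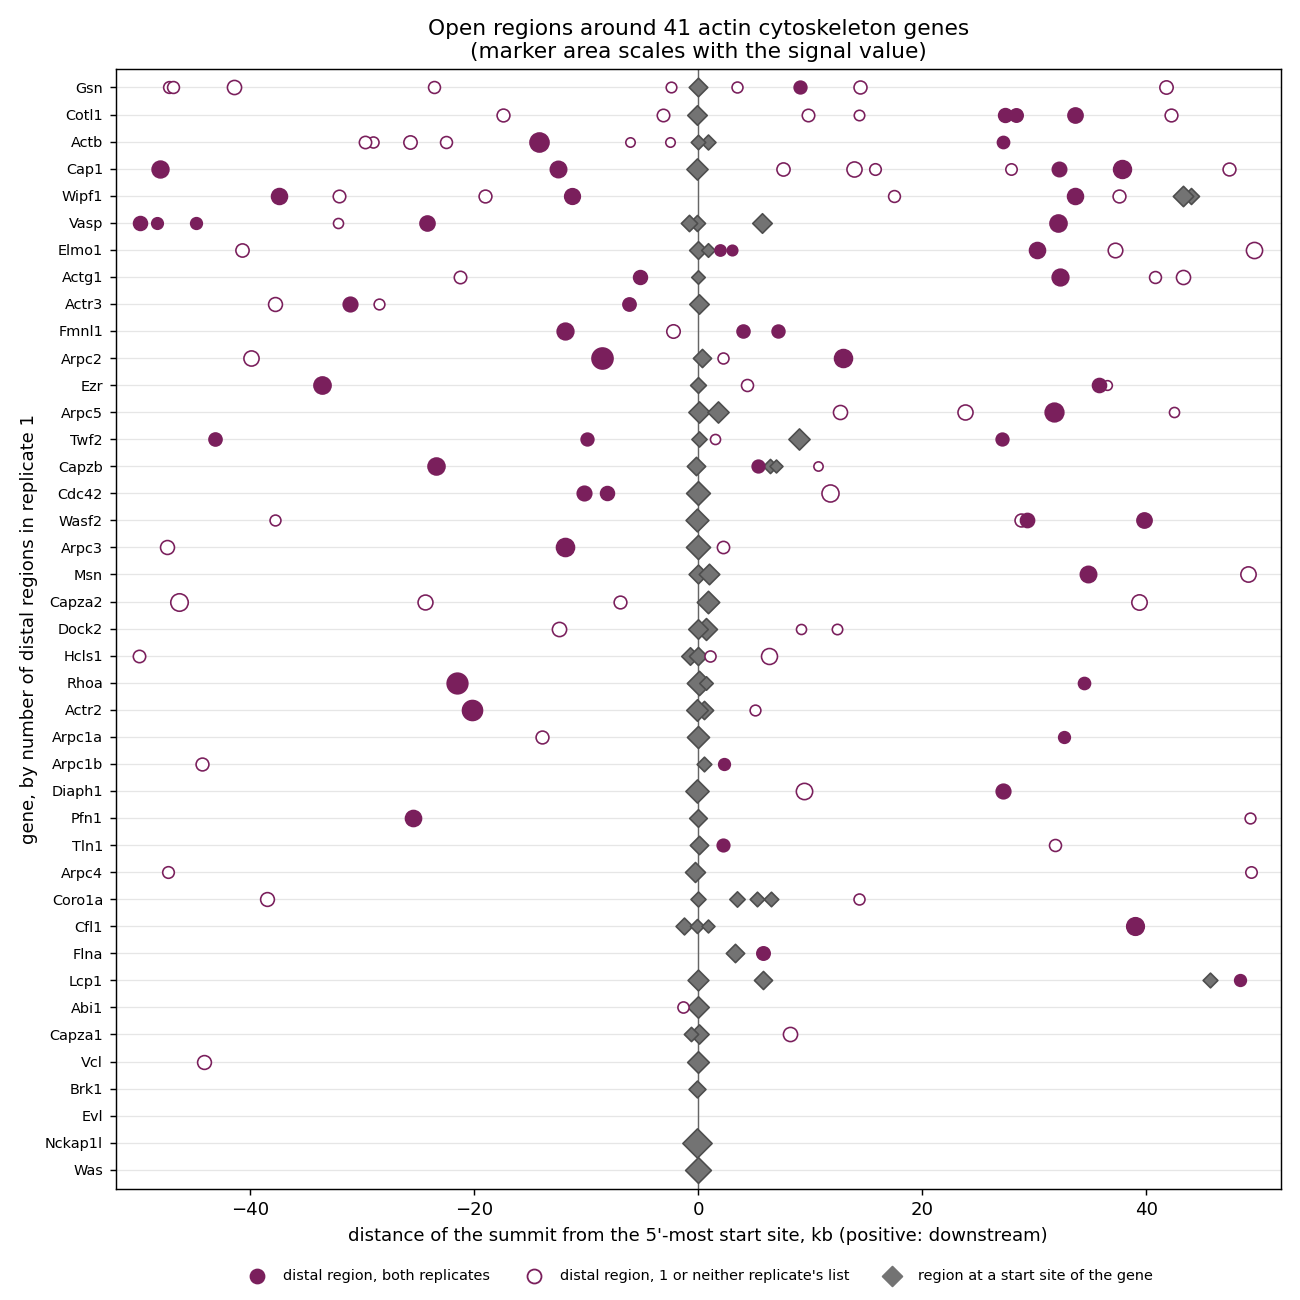
Position of each region's summit in kb from the 5'-most start site (horizontal axis, positive downstream) for the 41 genes, ordered by distal regions in replicate 1; filled circles are distal regions in both replicates, open circles those in 1 or neither, diamonds regions at start sites, and marker area scales with the signal value. Gsn heads the map with 9 distal regions in replicate 1, and Brk1, Evl, Nckap1l and Was have none; the Elmo1, Diaph1 and Wipf1 start-site regions beyond 50 kb are not drawn.

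Distal regions were unevenly shared out. In replicate 1 Gsn had 9, Actb 8, Cotl1 8, Cap1 7 and Wipf1 7, and only 1.16% of all genes had at least 7. In replicate 2 the same genes had 1, 2, 3, 4 and 3. Vasp had 6 in replicate 1 and 5 in replicate 2, the highest count of the set in the latter. At least 5 in replicate 1 were counted for 9 of 41 members, against 4.90% of all genes. Was, Nckap1l, Brk1 and Evl had none in either stringent list nor in the shared list. The genes without a distal region thus included the strongest promoter of the set, Nckap1l, and some of the weakest, Brk1 and Evl. The actin genes, weak at their promoters, had 8 and 2 distal regions for Actb and 5 and 2 for Actg1.

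The distal regions of all members came to 129 distinct ones. Of these, 54 were in both replicates, 69 in replicate 1 only, 0 in replicate 2 only, and 6 only in the shared list. The list of replicate 2 was the shorter, with 14548 regions of all kinds against 27709. No share over all distal regions stands beside these counts or the placements below, so they cannot be set against a general level. Of the 129, 61 were intergenic, 47 lay in an intron of the member, 14 in an intron of another gene and 7 in exons. The closest protein-coding start site belonged to the member for 83, and for the rest another gene's start was closer. Arpc1a and Arpc1b lie side by side and shared 2 of them.

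Several distal regions had higher values than the promoter of the same gene. The highest in replicate 1 was 8.58 kb before Arpc2, with 22.6 and 16.6, where the Arpc2 promoter had 8.52 and 12.3. A region 20.2 kb before Actr2 had 20.5 and 16.9, against 11.9 and 15.0 at the promoter. A region 21.5 kb before Rhoa, nearer to the start of Nicn1, had 21.8 and 16.1, against 15.2 and 14.8. A region 14.2 kb before Actb, the highest in replicate 2, had 18.5 and 19.4, against 5.76 and 7.37. Among members with both kinds of region, the strongest distal one was above the strongest promoter one in 24 of 34 in replicate 1 (70.6%, against 43.2% of all such genes). In replicate 2 it was so in 12 of 25 (48.0%, against 32.6%). These shares do not compare like with like. In replicate 1 members had 3.10 distal regions per gene against 1.17 for all genes. Among genes open in both replicates, their median promoter value there was 11.09 against 13.3. The strongest distal region of a member was thus taken from more regions and set against a lower promoter value. The part this has in the shares was not tested.

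Sequence out to 50 bases on either side of the summits of these 4 regions is shown because these were distal regions stronger than the promoters of their genes. It is on the strand of the gene in mm10, and capitals mark a C/EBP string, TTGCNNAA, near Actr2.
Arpc2 distal, chr1:74227456-74227556, plus strand: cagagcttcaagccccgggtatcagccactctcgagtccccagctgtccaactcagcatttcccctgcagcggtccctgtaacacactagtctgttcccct
Rhoa distal, chr9:108284548-108284648, plus strand: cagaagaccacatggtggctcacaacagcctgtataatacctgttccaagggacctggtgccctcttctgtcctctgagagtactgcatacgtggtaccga
Actr2 distal, chr11:20133093-20133193, minus strand: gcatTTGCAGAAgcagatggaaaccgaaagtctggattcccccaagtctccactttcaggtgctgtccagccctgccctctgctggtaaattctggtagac
Actb distal, chr5:142920867-142920967, minus strand: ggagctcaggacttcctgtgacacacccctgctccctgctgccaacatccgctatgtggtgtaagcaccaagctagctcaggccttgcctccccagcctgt

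CArG boxes recurred in the distal regions. In the shared list 8 of 107 distal regions near members held one (7.48%), against 2.17% of all 13238 distal regions. They lay near Wipf1, Actb, Arpc2, Arpc5, Capza1, Cap1 and Cotl1, with 2 near Cotl1. The regions near members had a median width of 391 bp, and all distal regions 344 bp. The strongest of them was inside Arpc2, 12.9 kb downstream of its first start, with 16.4 and 15.5 and the box 40 bases from the summit. A region 22.5 kb before Actb, with 7.24 in replicate 1 and none in the stringent list of replicate 2, also held a box. Their sequences are shown for comparison with the promoter boxes above, with the box in capitals.
Arpc2 intron, chr1:74248935-74249035, plus strand: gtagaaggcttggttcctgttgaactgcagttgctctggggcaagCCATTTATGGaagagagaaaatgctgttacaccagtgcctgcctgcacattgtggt
Actb upstream, chr5:142929142-142929242, minus strand: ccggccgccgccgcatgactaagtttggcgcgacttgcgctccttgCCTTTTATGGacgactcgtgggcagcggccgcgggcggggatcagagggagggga

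Other strings were searched on both strands of whole promoter regions. They were ETS (CCGGAAGT), PU.1 (GAGGAAGT), SP/KLF (GGGGCGGGG), NF-Y (CCAATCA), CRE (TGACGTCA), C/EBP (TTGCNNAA), RUNX (TGTGGTT) and AP-1 (TGANTCA). The ETS and PU.1 strings share their last 6 letters and differ in the first 2, so no 1 site counts for both. The PU.1 string was in 10 of 39 members (25.6%, against 7.98% of all open genes). Of these, 4 were among the 8 haematopoietic genes with a region (Coro1a, Wipf1, Nckap1l and Lcp1). In Lcp1 the string lay in a weaker region, with 6.07 in the shared list. It was 45571 bases downstream of the first start and 148 bases from that region's summit. The ETS string was in 9 of 39 (23.1%, against 14.1%), and all 9 were ubiquitous members. No haematopoietic promoter region held the ETS, NF-Y or CRE string, which says only that these letters are not there. Of all open genes 14.1%, 17.1% and 5.50% held them, so with 8 genes few or none would be counted at the general shares.

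C/EBP was in 11 of 39 (28.2%, against 17.6%), SP/KLF in 15 (38.5%, against 32.6%), AP-1 in 6 (15.4%, against 10.7%), NF-Y in 7 (17.9%, against 17.1%), RUNX in 4 (10.3%, against 8.62%) and CRE in 2 (5.13%, against 5.50%). Within 50 bases of promoter summits alone, PU.1 was in 4 members (10.3%, against 3.11%), namely Coro1a, Wipf1, Actr2 and Elmo1. Haematopoietic members had a median of 960.5 searched bases per gene and ubiquitous members 800, so the forms were searched over unequal lengths.

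**Figure D4:**
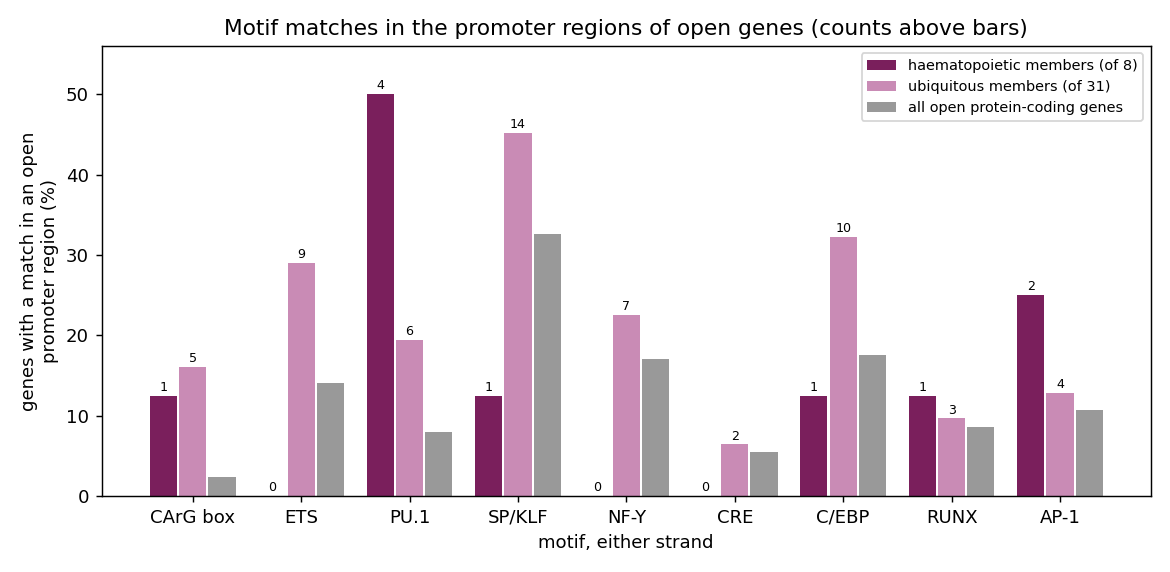
Share of open genes with a motif string in a promoter region (vertical axis, percent) for the 8 haematopoietic and 31 ubiquitous members with a region and for all open genes, in the shared list; numbers above bars are gene counts. The PU.1 string was in 4 of 8 haematopoietic members, where 7.98% of all open genes had it. The ETS string was in none of the 8, where 14.1% of all open genes had it. Within 50 bases of a summit the PU.1 string was in 2 of the 8, where 3.11% of all open genes had it.

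A list of other actin-dynamics genes gives the wider pathway. Of 71 entries 70 matched, and 43 were open in both replicates (61.4%), a share between that of the members and the 39.8% of all genes. In 17 no promoter region was found in either replicate. The highest by the mean of both replicates were Twf1, the other twinfilin, with 19.2 and 21.7, Wasl with 15.9 and 18.1, and Limk2, a kinase that inactivates cofilin, with 14.9 and 18.2. In alphabetical order the first 5 without a region in either replicate were Arhgdib, Cap2, Cttn, Cyfip2 and Dock1. The other pathway genes had 2.20 distal regions per gene in replicate 1 and 0.857 in replicate 2, below the members in both libraries.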

How the data were processed

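ATAC-seq peak lists of 2 neutrophil libraries, replicates 1 and 2, were used on mm10. Signal values are scores, 1 per peak, as the authors deposited them, with no definition in labels or headers. Per the file headers, the kinds of list are an IDR-thresholded list per replicate (stringent), pseudoreplicated peaks per replicate (less strict), and a conservative IDR list of both replicates (shared). Aligner and peak caller: not given in the sources used here.

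Overlapping peaks were merged into regions that kept the highest score and its summit, and set against GENCODE M21 (GRCm38.p6) with Python 3.11.15. Promoter overlap needed 1 bp. Coordinates count from 1. Sequences came from GRCm38.p6, and promoter windows from RefSeq. The counting was tested on simulated peaks. With 1 group no test between groups was made, and counts stand beside those of all protein-coding genes.

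Full values were given for haematopoietic forms and counterparts, the 5 highest and 5 lowest promoters, genes missing in a replicate and those with most distal regions; other members by value. The genes, lists and motifs were chosen with earlier results of these data known, and the sequences printed were picked after their values were seen. Some sequences and genes are not reported here.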

Additional observations from a re-analysis of the deposited data

How the results depend on the processing

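No paired analysis was possible because the study has 1 group. With only peaks at or above the median signal value of their list, 20 members (30.4% of all genes), 16 ubiquitous members and 26 other pathway genes were open in both replicates, in place of 35, 29 and 43. The less strict lists gave 40 members (49.8% of all genes) and a promoter width of 2.5 kb gave 38 (41.5%). Open members numbered 36 to 37 with either replicate alone, haematopoietic members 6 to 7, ubiquitous members 30 to 30, and other pathway genes 43 to 53. The split into forms is a choice. With Evl, Cotl1 and Elmo1 counted as haematopoietic, 8 haematopoietic and 27 ubiquitous members were open in both replicates, with 2.04 and 2.29 distal regions per gene. With Arpc1b and Wipf1 left out of the haematopoietic list, 6 and 29 were open, with 1.21 and 2.43. Of all genes 39.8% were open.

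The median promoter value of the 35 members open in both replicates, 11.5 as the mean of both, was 11.09 to 11.99 with either replicate alone. In the shared list it was 12.2 for the same 35 genes and 11.15 for the 39 members with a region there. Distal regions per member, 2.22 in the replicates' mean, came to 3.62 within 100 kb and to 3.93 in the less strict lists, where all genes had 1.55 and 1.69. For haematopoietic members they came to 3.50 within 100 kb and 3.17 in the less strict lists, and for ubiquitous members to 4.14 in the less strict lists. With either replicate alone they were 1.34 to 3.10 per member, 0.889 to 2.44 per haematopoietic member and 1.47 to 3.28 per ubiquitous member. In the shared list, members with a CArG box numbered 3 around summits and 6 over whole regions, against 0.586% and 2.41% of all open genes. They numbered 4 of 37 open members in replicate 1 and 2 of 36 in replicate 2. No share of all genes stands beside these last 2 counts, so they cannot be set against a general level. The cause of these shifts was not tested. Depth is unknown, so a missing region was not detected, which does not show closed chromatin.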
